A study of Mus musculus with 3 samples.

Results

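Adherens junctions hold neighbouring epithelial cells together, and the 10 genes described here encode their core: the cadherins Cdh1 and Cdh3, the catenins Ctnna1, Ctnnb1 and Ctnnd1, the actin-linking proteins Vcl and Afdn, and the nectins Nectin1, Nectin2 and Nectin4. They were listed by name for their role in this junction, with earlier results of these data known, out of 21887 protein-coding genes placed on the mouse chromosomes. For each gene, every peak with any base inside the gene span (mm10) or within 20 kb on either side was taken. This gave 52 of the 18087 DLX3 peaks and 34 of the 16735 H3K4me3 peaks, and no peak lay in more than 1 of the 10 windows.

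The peaks come from chromatin immunoprecipitation and sequencing (ChIP-seq) of suprabasal keratinocytes from wild-type BALB/c mice, with no treatment in the labels. These are skin cells that have left the basal layer and begun to differentiate. Chromatin of these cells gave 1 library each with antibodies to DLX3, a homeodomain factor that acts in epidermis, hair and teeth, and to H3K4me3, a histone mark found at active promoters. The third library, made with nonspecific IgG, was not analysed here. The sample labels give the age as adult, whereas the series text speaks of newborn skin separated on Percoll. With 1 library per antibody there is no replicate spread, so all that follows is a description of 2 peak lists without a test. Read depth is unknown. The score of each peak is the authors' own and was compared only within its list, in which DLX3 scores had a median of 83.35 and a range of 50.01 to 3100, and H3K4me3 scores a median of 823.67 and a range of 50 to 3233.06.

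In an adherens junction, the outer parts of E-cadherin (Cdh1) and P-cadherin (Cdh3) bind the same cadherin on the next cell. Inside the cell, β-catenin (Ctnnb1) and p120-catenin (Ctnnd1) bind the cadherin tail, and α-catenin (Ctnna1) ties β-catenin to actin, with vinculin (Vcl) joining when the junction is under tension. Nectins are immunoglobulin-like adhesion molecules that bind nectins on the neighbouring cell and reach actin through afadin (Afdn). In people, mutations of P-cadherin, nectin-1, nectin-4 and DLX3 itself each cause inherited disorders with hair, skin or tooth defects.

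H3K4me3 at cell type markers was read first, over each marker gene with 1 kb on either side. The mark was present at 8 of 8 suprabasal markers, among them Krt1, Krt10 and Lor, and at 6 of 6 basal markers, among them Krt5 and Krt14, against 64.1% of all protein-coding genes. It was present at 0 of 5 immune markers, 1 of 4 endothelial markers (Kdr), 3 of 5 melanocyte markers (Mitf, Dct and Pmel) and 4 of 5 fibroblast markers (Col1a1, Col1a2, Pdgfra and Dcn). The part that such other cells may have in the peaks below was not tested.

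Promoter sequence from RefSeq (GRCm38.p6, the assembly of mm10) was at hand for 6 of the 10 genes, in 8 windows running from 250 bases before a transcription start to 50 bases from it. Cdh1, Cdh3, Ctnna1 and Nectin1 were not in that table. The 250 bases before 1 start of 5 of these genes follow, because these windows separate genes with DLX3 at the start (Ctnnb1, Vcl and Nectin2) from genes with H3K4me3 there and no DLX3 peak (Ctnnd1, at its inner start, and Nectin4). Each is written 5′ to 3′ on the strand of the gene. Capitals mark every match that lies wholly within the printed stretch, on either strand, to the homeodomain core TAATT, the CCAAT box CCAAT, the GC box GGGCGG, the TATA box TATAAA, the CRE TGACGTCA or the AP-1 motif TGANTCA.
Ctnnb1, chr9:120933150-120933399, plus strand: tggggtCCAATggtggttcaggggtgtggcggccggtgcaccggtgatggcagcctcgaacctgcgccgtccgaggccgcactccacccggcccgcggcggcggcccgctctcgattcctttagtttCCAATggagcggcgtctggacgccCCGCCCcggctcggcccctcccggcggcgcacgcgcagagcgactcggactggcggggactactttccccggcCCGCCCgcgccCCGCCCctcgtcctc
Vcl, chr14:20929148-20929397, plus strand: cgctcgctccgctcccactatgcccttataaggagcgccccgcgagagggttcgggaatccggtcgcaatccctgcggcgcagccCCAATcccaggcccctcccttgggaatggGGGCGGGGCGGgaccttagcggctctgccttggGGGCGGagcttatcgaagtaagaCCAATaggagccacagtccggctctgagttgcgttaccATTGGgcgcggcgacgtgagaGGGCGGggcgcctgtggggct
Nectin2, chr7:19749574-19749823, minus strand: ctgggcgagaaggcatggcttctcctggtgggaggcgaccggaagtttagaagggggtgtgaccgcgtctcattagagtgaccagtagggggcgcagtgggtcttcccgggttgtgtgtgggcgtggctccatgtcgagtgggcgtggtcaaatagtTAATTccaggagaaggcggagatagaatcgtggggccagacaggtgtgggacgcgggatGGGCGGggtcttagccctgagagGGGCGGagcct
Ctnnd1 inner start, chr2:84650741-84650990, minus strand: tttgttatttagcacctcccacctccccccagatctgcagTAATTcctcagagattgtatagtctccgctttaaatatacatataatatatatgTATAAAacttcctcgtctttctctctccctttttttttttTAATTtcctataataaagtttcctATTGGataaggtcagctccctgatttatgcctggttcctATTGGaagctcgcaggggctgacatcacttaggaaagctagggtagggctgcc
Nectin4, chr1:171369923-171370172, plus strand: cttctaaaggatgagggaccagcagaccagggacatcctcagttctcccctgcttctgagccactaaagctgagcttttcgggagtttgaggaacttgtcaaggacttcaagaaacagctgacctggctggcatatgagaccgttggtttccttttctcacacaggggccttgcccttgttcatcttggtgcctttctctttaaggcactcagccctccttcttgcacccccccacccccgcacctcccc

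The windows differed in base composition. Over the full 300 bases, GC content was 75.3% at Ctnnb1, 66.7% at Vcl, 83.3% at Afdn and 62.7% at Nectin2, and these windows held 20 to 62 CpG dinucleotides. The inner Ctnnd1 window had 42.7% GC and 3 CpG, and the Nectin4 window 53.3% GC and 3 CpG, while the median of all 32851 windows in the table was 52.7% GC and 7 CpG. Of these 6 windows, the CpG-rich ones were those with a DLX3 peak. The outer Ctnnd1 window went the other way, with 67.7% GC and 30 CpG but a peak of neither antibody. How often CpG-rich windows of the whole table meet DLX3 was not worked out, so no link can be read from these few.

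TAATT, the letters bound by many homeodomain proteins, was found once in the Nectin2 window, beginning 93 bases before the start, and at 210 and 116 bases before the inner start of Ctnnd1. In the Nectin4 window its 1 match, on the opposite strand, began at the first transcribed base, beyond the stretch shown, and a CCAAT box there began 2 bases before the start and ran past it. The windows of Ctnnb1, Vcl and Afdn, which lay under DLX3 peaks, held none. TAATT was thus present in 3 of the 8 windows, and 27.0% of all windows in the table hold it. GC boxes were found in 5 of the 8, in 4 genes (35.7% of all windows), and CCAAT boxes in 5 of the 8, in 4 genes (37.4%). The 2 Ctnnb1 windows overlap, so GC boxes that they share count in both. The CRE was present once, at position 40 of Nectin2 counted from its start (1.79% of all windows), and the AP-1 motif in none of the 8 (7.81%). TATAAA was found in 2 of the 8, at the inner Ctnnd1 start and at the second Ctnnb1 start, against 13.6% of all windows. CANNTG, the E-box, was found in 3 of the 8 and in 72.3% of all windows. These matches are letters in a window and not sites of binding.

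All 10 genes had a DLX3 peak in their window, where 52.5% of all protein-coding genes did. They also all had a DLX3 peak over the gene span itself, against 35.8% of all protein-coding genes. These genes are long: the median span was 68642.5 bp, against 17169 bp for all protein-coding genes, and longer windows catch more peaks. Of the 6965 genes within the same range of lengths (18115 to 145408 bp) that carried H3K4me3 over the span, 73.2% had a DLX3 peak in the window and 58.9% over the span. The number of DLX3 peaks per gene went from 2 at Ctnnb1 to 11 at Nectin1, with a median of 4, against a median of 1 in the genes of the same length range and of 1 in all protein-coding genes. Per 100 kb of window, the median was 4.481 peaks in the 10 genes, 1.407 in the genes of the same length range and 0.651 in all protein-coding genes.

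**Figure D1:**
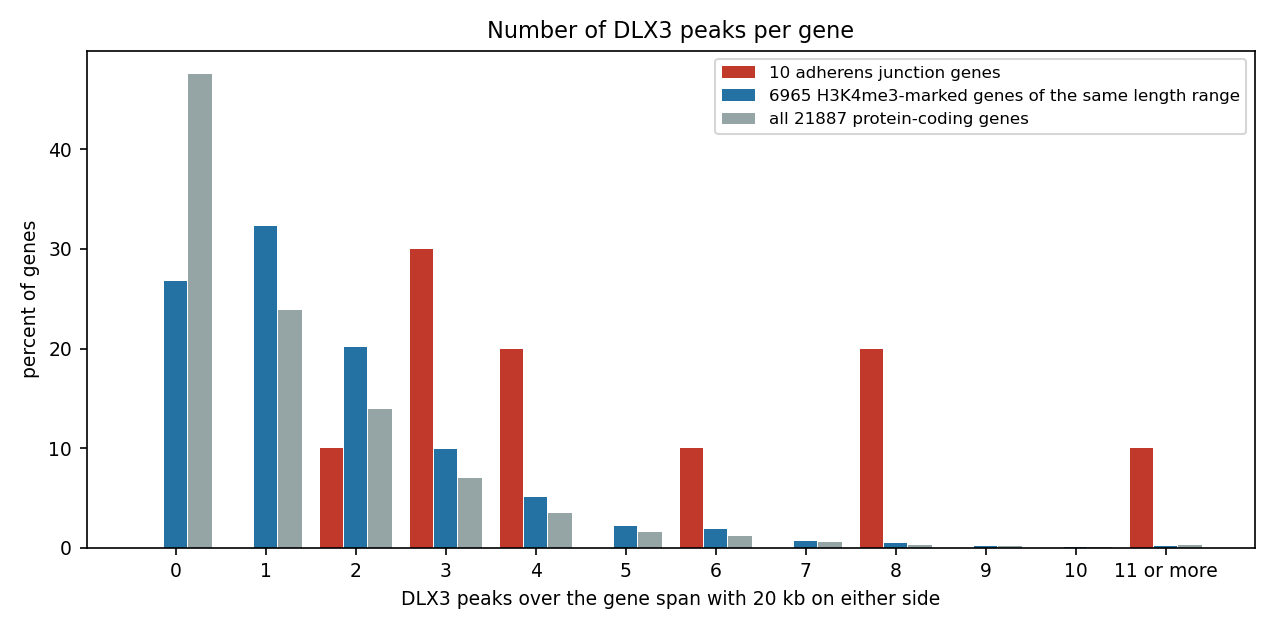
Percent of genes (vertical axis) with each number of DLX3 peaks over the span and 20 kb on either side (horizontal axis), for the 10 adherens junction genes (red), 6965 H3K4me3-marked genes of the same length range (blue) and all 21887 protein-coding genes (grey). None of the 10 had fewer than 2 peaks, and 3 had at least 8.

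H3K4me3 lay over all 10 gene spans, against 63.5% of all protein-coding genes, and in all 10 windows, against 71.2%. The highest-scoring H3K4me3 peak over each span, called the lead peak below, scored from 1556.03 at Ctnnd1 to 3172.69 at Cdh1 and was 3579 bp wide at Vcl to 9624 bp wide at Nectin4. Its median score was 2423.55 and its median width 4423 bp, against 1370.03 and 2408 bp in the genes of the same length range. Both values lay above those medians in 10 of the 10 genes. DLX3 met the lead peak in 7 of the 10 and did not in Cdh3, Ctnnd1 and Nectin1, whereas it met it in 47.8% of the genes of the same length range. At least 1 DLX3 peak of the window lay on some H3K4me3 peak in 9 of the 10, Cdh3 being the exception, against 42.5% of all protein-coding genes and 61.2% of those of the same length range. With both lists restricted to peaks at or above their median score this held for 5 of the 10, and with the top 20% of each list for 3. The shares of other genes under these filters were not worked out. The 10 genes had wider lead peaks and more DLX3 peaks per 100 kb than those of the same length range. The part of width and density in the overlaps above was not tested.

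**Figure D2:**
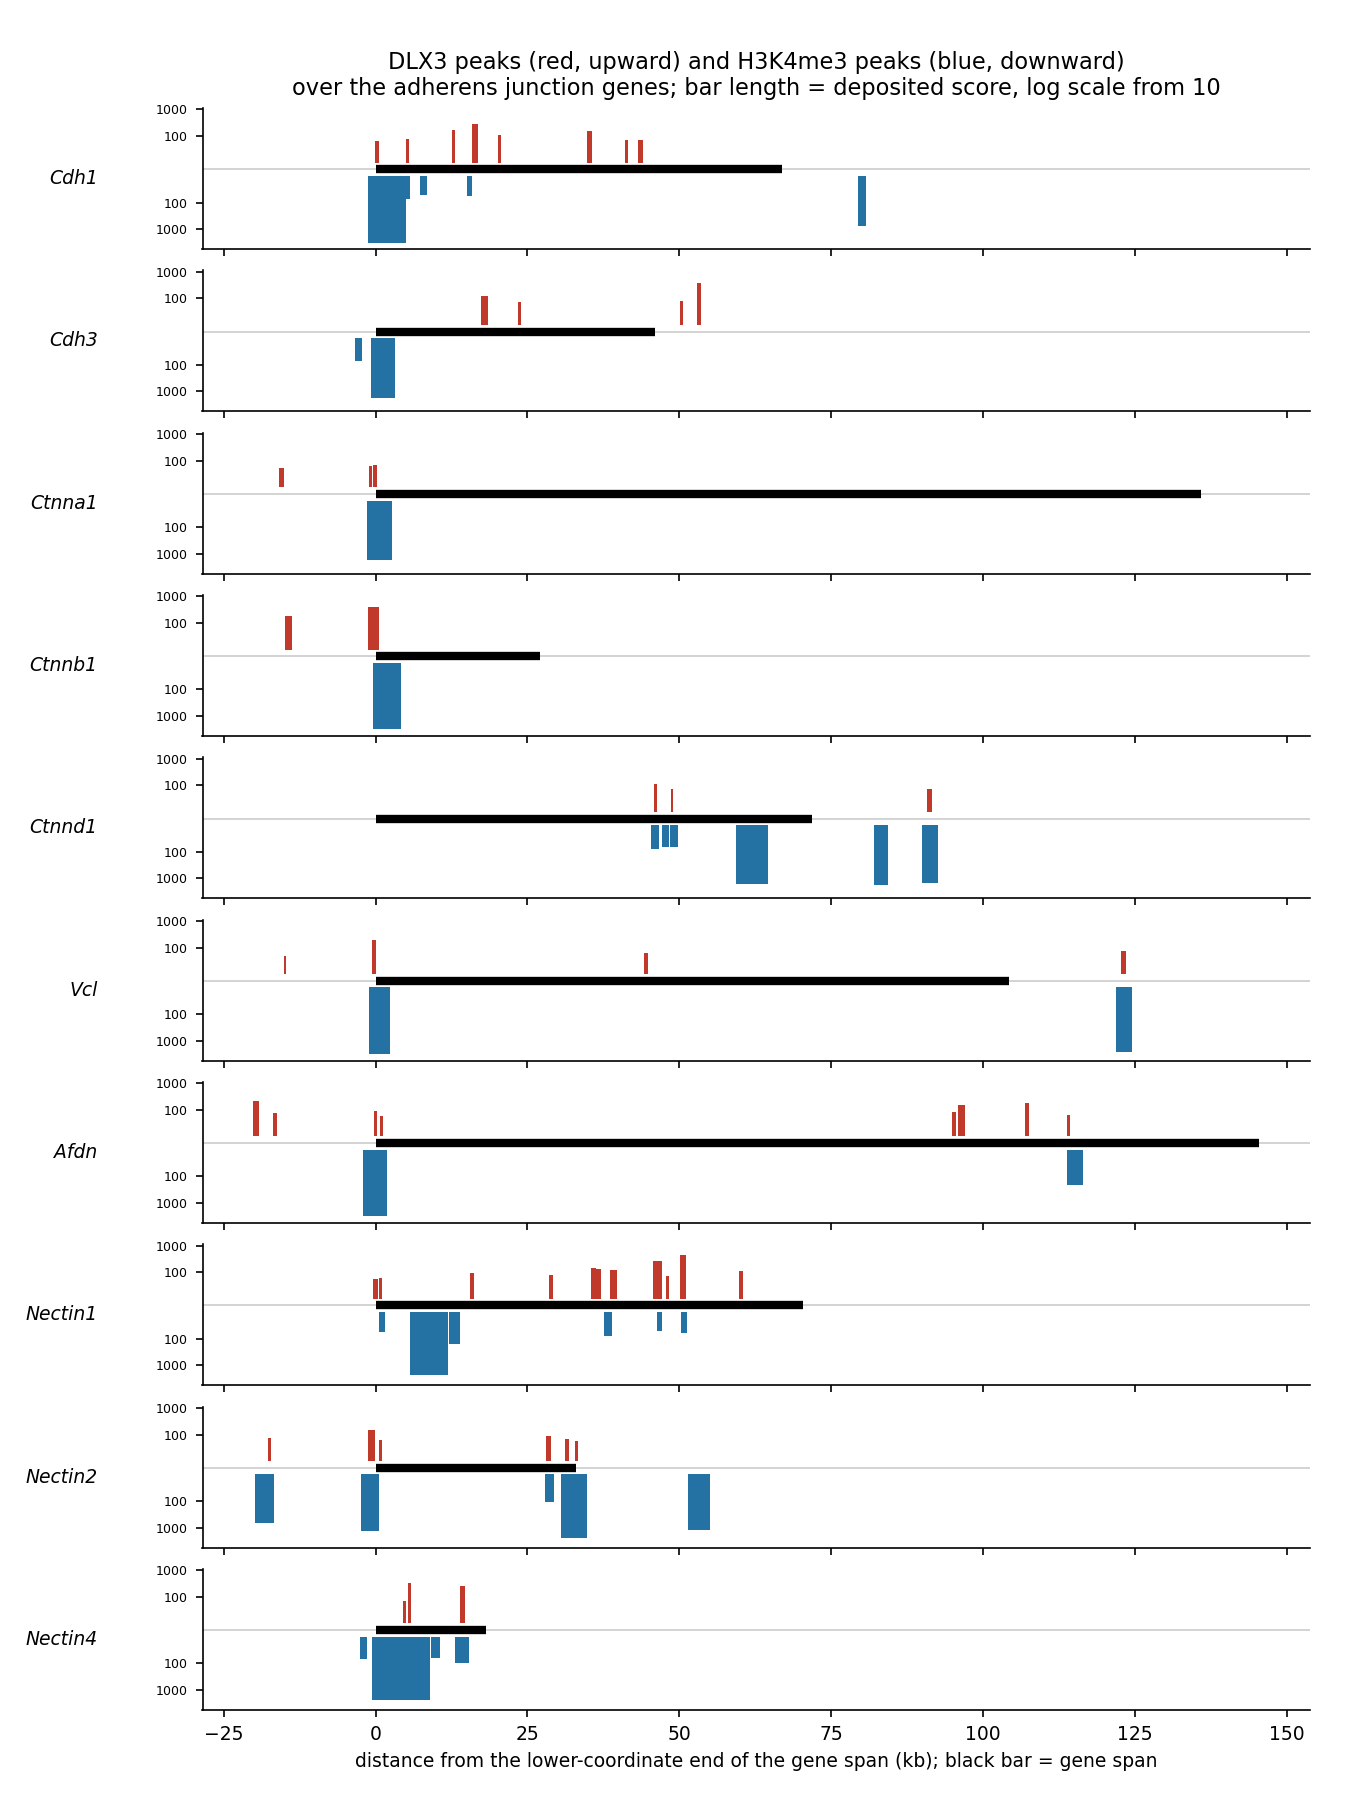
Position of DLX3 peaks (red, upward) and H3K4me3 peaks (blue, downward) along each gene, in kb from the lower-coordinate end of its span (black bar); bar length is the deposited score on a log scale that starts at 10. The highest-scoring DLX3 peak stood at the H3K4me3-marked end in Ctnnb1 and Vcl. In Cdh1 and Nectin1, DLX3 peaks were spread along the gene, with the highest away from that end.

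Cdh1, the gene of E-cadherin, spans chr8:106603350-106670247 and had 8 DLX3 peaks, all centred inside the gene. Its H3K4me3 lead peak (chr8:106602185-106608293, 6109 bp) ranked 56 of 16735 by score, at 3172.69. Just below it, 766 H3K4me3 peaks share a score of 3100, and whether the order around that value follows signal strength was not tested. The DLX3 peak at that end, centred 162 bp from it, was the lowest of the 8, at 62.07, and ranked 13906 of 18087. Farther into the gene the DLX3 scores were 77.9 at 5270 bp from that end, 168.86 at 12843 bp, 274.38 at 16295 bp, 113.45 at 20391 bp, 156.24 at 35228 bp, 73.01 at 41321 bp and 72.87 at 43570 bp. The highest of them (chr8:106619158-106620132, rank 616) overlapped, by its edge and with its centre outside, an H3K4me3 peak of 929 bp with a score of only 57.24. At Cdh1 the strongest H3K4me3 and the strongest DLX3 signal were therefore apart, by 10865 bp between the borders of the 2 peaks. Of all protein-coding genes, 0.827% had 8 or more DLX3 peaks in their window, and 0.948% of those of the same length range did.

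Cdh3, the gene of P-cadherin, which marks basal cells and the hair matrix in skin, spans chr8:106510852-106556911, next to Cdh1 on the same chromosome. It had 4 DLX3 peaks and none of them met H3K4me3. Inside the gene, scores were 126.84 at 17932 bp and 69.79 at 23728 bp from the H3K4me3-marked end. Beyond the other end, scores were 80.34 at 4331 bp and 368.22 at 7150 bp outside the span. The last one (chr8:106563779-106564344) ranked 217 of 18087 and lies between Cdh3 and Cdh1, nearer to Cdh3. The lead H3K4me3 peak of Cdh3 (chr8:106510081-106514107) scored 1726.33 and held no DLX3 peak, and an H3K4me3 peak of 71.7 lay 2806 bp outside the marked end. In both cadherin genes, DLX3 at the marked end was thus low or not listed, and higher-scoring DLX3 peaks lay elsewhere.

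Ctnnb1 encodes β-catenin, which also carries Wnt signals to the nucleus. It spans chr9:120933400-120960507 and had 2 DLX3 peaks. The one at the start (chr9:120932197-120933898, 1702 bp) scored 397.21, ranked 163 of 18087 and covered both promoter windows in full, the one printed above included. It overlapped the lead H3K4me3 peak (4614 bp), whose score was 3100, a value that 766 H3K4me3 peaks share. The other DLX3 peak (chr9:120918574-120919649) scored 186.2 and was centred 14289 bp upstream, without H3K4me3. No DLX3 peak was found inside the body of the gene beyond the one at its start.

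Ctnna1, the gene of α-catenin, spans chr18:35118902-35254776 and had the lowest top DLX3 score of the 10. Its 3 DLX3 peaks scored 51.82, 62.09 and 67.53, all under the list median. The last 2 were centred 887 and 103 bp outside the marked end and lay on the lead H3K4me3 peak (4037 bp, score 1775.66), and the first, 15484 bp outside, met no H3K4me3. All 3 were nearest to another gene, Gm46617. Between the marked end and the far end of this gene of 135875 bp no further DLX3 peak was listed.

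Ctnnd1, the gene of p120-catenin, which keeps cadherins at the cell surface, lies on the minus strand at chr2:84587096-84658977. No peak of either antibody lay over the window at its outer start. The lead H3K4me3 peak (chr2:84646343-84651664, 5322 bp, score 1556.03) instead lay 7313 bp inside the gene and covered the inner start printed above. DLX3 was listed at neither start. It was listed deeper in the gene, with scores of 107.31 at 25817 bp and 73.6 at 23127 bp from the outer start, each on an H3K4me3 peak of low score (80.2 and 67.79). The other DLX3 peak, of 75, was centred 19316 bp upstream on an H3K4me3 peak of 1503.71 and was nearest to Tmx2, as another H3K4me3 peak of 1717.56 in the window was to Selenoh.

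Vcl, the gene of vinculin, spans chr14:20929383-21033676, with DLX3 at its start. That peak (chr14:20928854-20929494) scored 196.14, ranked 1587 of 18087, covered the promoter window in full and lay on a lead H3K4me3 peak of 3100.12. The other 3 DLX3 peaks scored 50.24 at 14873 bp upstream, 60.39 at 44502 bp inside the gene and 76.83 beyond the far end. The last one lay on an H3K4me3 peak of 2703.5 at the neighbouring genes Ap3m1 and Adk. The start peak of Vcl was therefore its only DLX3 peak above the list median.

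Afdn, the gene of afadin, spans chr17:13760391-13905798 and had 8 DLX3 peaks in 3 groups. At the start, scores were 86.87 (chr17:13760071-13760707, covering the promoter window) and 61.28, both on a lead H3K4me3 peak of 3100. In the far part of the gene, scores were 83.02 at 95139 bp, 157.96 at 96432 bp, 187.54 at 107193 bp and 63.81 at 114000 bp from the start. Only the last of these met H3K4me3, a peak of 211.1. Upstream of the gene, scores were 207.46 at 19720 bp and 74.13 at 16560 bp. These 2 peaks and the 86.87 peak at the start were nearest to Tcte2. The 207.46 peak was the highest of the 8 and crossed the edge of the 20 kb window, with 760 of its 959 bp inside.

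Nectin1 had 11 DLX3 peaks, the most among the 10 genes, a number reached by 0.247% of protein-coding genes and by 0.201% of those of the same length range. It spans chr9:43737075-43807461 and all 11 peaks overlapped the span. The highest (chr9:43787228-43788115) scored 443.4, ranked 108 of 18087 and was centred 50596 bp into the gene. It belongs to a run of 6 peaks within 15663 bp, whose scores in order were 139.03, 126.99, 119.48, 273.56, 74.04 and 443.4. Within this run, 3 of the 6, including the 2 highest, overlapped H3K4me3 peaks of 79.43, 52.21 and 61.87, close to the floor of that list. The 119.48 peak was centred outside the H3K4me3 peak it overlapped. The other 5 DLX3 peaks of the gene scored from 57.39 to 106.85. The lead H3K4me3 peak (chr9:43742698-43748973, 6276 bp, score 2309.51) began 5623 bp inside the annotated end and held no DLX3 peak, while the end itself had DLX3 scores of 57.39 and 60.69 and an H3K4me3 peak of 56.75.

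Nectin2 lies on the minus strand at chr7:19716644-19749573, in a dense stretch of genes, and had 6 DLX3 peaks. At its start, on the lead H3K4me3 peak of 2432.83, DLX3 scores were 54.71 at 79 bp and 67.74 at 1427 bp from the start. The 54.71 peak (chr7:19749408-19749896) covered the promoter window with the TAATT match printed above. Inside the gene, a peak of 91.33 at 4441 bp lay on H3K4me3 of 109.82, and one of 62.05 near the far end met none. The highest, 148.8, lay on H3K4me3 of 1377.62 and was nearest to Tomm40, and one of 75.33 on H3K4me3 of 693.11 was nearest to Apoe. An H3K4me3 peak at Bcam, scoring 1172.31, crossed the edge of the window. The highest DLX3 score in the Nectin2 window thus belonged to a peak nearer to a neighbouring gene.

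Nectin4 spans chr1:171370173-171388287 and is the shortest of the 10 genes. Its lead H3K4me3 peak of 9624 bp (score 2414.27) was the widest among them and covered the start and the proximal part of the gene. The promoter window printed above had no DLX3 peak. DLX3 scored 69.53 at 4758 bp and 344.14 at 5539 bp from the start (chr1:171375464-171375960, rank 272), both inside that wide H3K4me3 peak, and 258.05 at 14297 bp (rank 742) on H3K4me3 of 97.88. All 3 DLX3 peaks of Nectin4 thus lay inside the gene and on H3K4me3, and 2 of the 3 were in the top 10% of the DLX3 list.

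**Figure D3:**
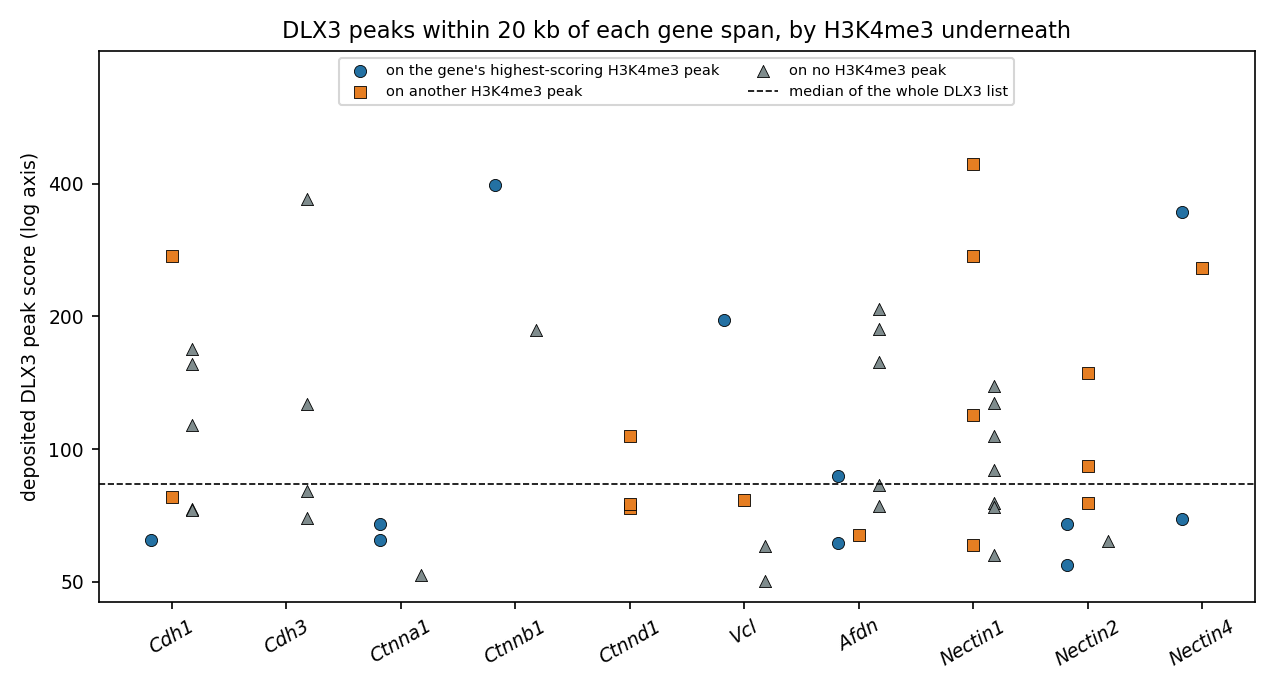
Deposited score of each of the 52 DLX3 peaks (vertical log axis) by gene, with the symbol giving the H3K4me3 underneath; the dashed line is the median of the whole DLX3 list, 83.35. Of the peaks on the lead H3K4me3 peak (circles), those at Ctnnb1 and Vcl stood above the line, those at Cdh1, Ctnna1 and Nectin2 below it, and Nectin4 (344.14 and 69.53) and Afdn (86.87 and 61.28) had 1 on each side.

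Across the 10 genes the DLX3 peaks had scores like those of the list as a whole, since their median was 81.68 and 25 of 52 (48.1%, exact 95% interval 34 to 62.4 for counting error) reached the list median. The highest peak of each gene stood higher, with a median over genes of 240.92, against 110.37 in the genes of the same length range that had any. Of the 10 genes, 7 had a peak in the top 10% of the list (a score of 187.3 or more), against 18.8% of the genes of the same length range with a DLX3 peak. A gene with more peaks has more chances to hold a high one, and the 10 genes had more peaks each. The genes without one were Ctnna1, Ctnnd1 and Nectin2.

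Of the 52 DLX3 peaks, 34 (65.4%, 50.9 to 78.0) were centred inside the span of their gene. The spans fill much of the windows, with medians of 68642.5 and 108642.5 bp. This share was not worked out for other genes, so no preference for the span can be read from it. H3K4me3 lay under 26 (50%, 35.8 to 64.2), against 42.1% (41.4 to 42.8) of the whole DLX3 list. The members' interval holds the list's value, but it treats peaks clustered in 10 genes as independent and is no test of a difference. With both lists restricted to peaks at or above their median score, or to their top 20%, the share for the 10 genes was 20%. The share of the whole DLX3 list under these filters was not worked out, so whether it falls likewise is unknown. The 11 peaks on a lead H3K4me3 peak had a median score of 67.74, and the other 41 a median of 89.59. Over all 52 peaks the median was 77.365 on H3K4me3 and 86.305 off it, with ranges that overlapped almost wholly (54.71 to 443.4 and 50.24 to 368.22). The whole DLX3 list had the opposite order, with a median of 93.79 on H3K4me3 and 76.83 off it. The highest DLX3 peak lay on the lead H3K4me3 peak in 4 of the 10 genes, Ctnna1, Ctnnb1, Vcl and Nectin4, against 46.2% of the genes of the same length range with a DLX3 peak. That share is close to the background.

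The H3K4me3 peaks of the 10 windows ranged widely in score. The 10 lead peaks all scored 1556.03 or more. Of the other 24, 17 scored under 223.585, the first quartile of the list, and are called weak here, and 15 of these 17 were centred inside the gene spans. The remaining 7 scored from 693.11 to 2703.5, and each was nearest to another gene (Apoe, Tango6, Bcam, Tomm40, Tmx2, Selenoh and Adk, from low to high). DLX3 met 11 of the 17 weak peaks (64.7%, exact 95% interval 38.3 to 85.8), in 6 of the 10 genes, against 21.4% (20.2 to 22.7) of all H3K4me3 peaks under that quartile. The windows also held more DLX3 peaks per 100 kb than those of other genes, and the part of that density in this share was not tested. Among the 10 highest DLX3 peaks, those in the top 10% of the list, 3 lay on a lead H3K4me3 peak (Ctnnb1, Vcl and Nectin4), 4 on a weak one (Cdh1, Nectin4 and 2 at Nectin1) and 3 on none (Cdh3 and 2 at Afdn). The Cdh1 peak met its weak peak only by an edge.

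**Figure D4:**
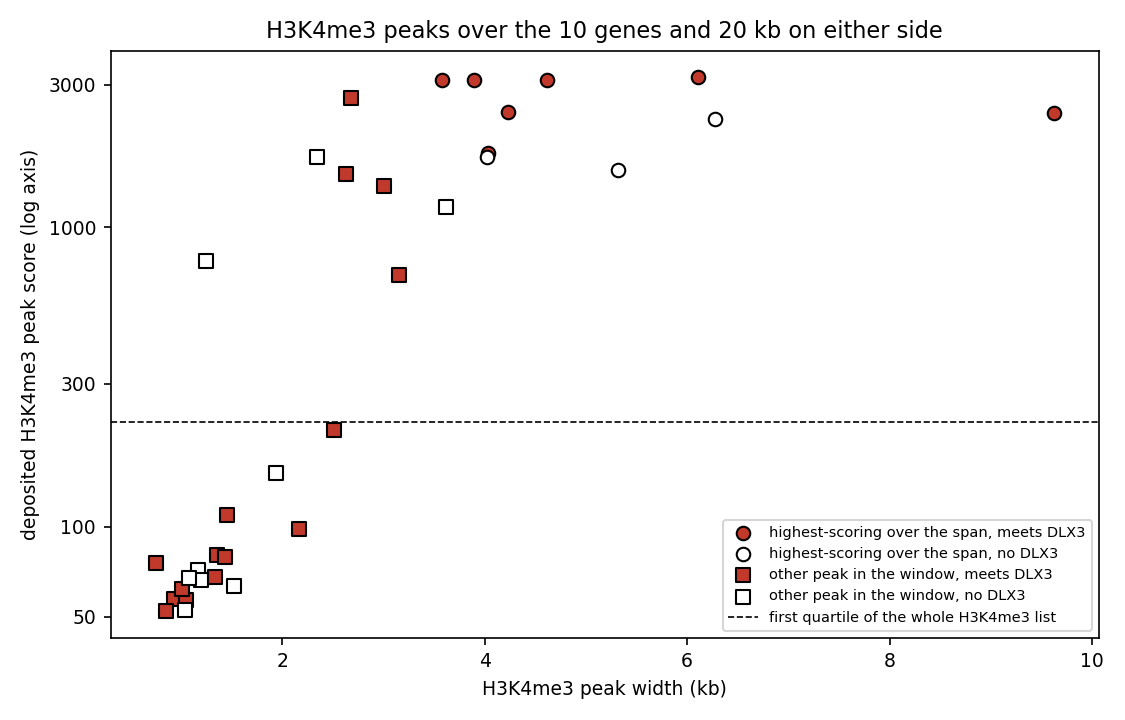
Width in kb (horizontal axis) and deposited score (vertical log axis) of the 34 H3K4me3 peaks in the 10 windows; circles are the highest-scoring peak over each gene span, squares the others, and filled symbols meet a DLX3 peak. The dashed line is the first quartile of the list; 17 peaks stood under it, 11 of which met DLX3.

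At the promoter windows, a DLX3 peak met 5 of the 8 windows of the 6 genes, in 4 genes, against 18.3% of all windows of the table. All 5 were covered in full, and the overlapping windows of Ctnnb1 lay under the same peak. H3K4me3 met 7 of the 8, against 43.7%. The window with neither was the outer start of Ctnnd1. The 18.3% covers windows with and without H3K4me3, and the share among those with it was not worked out.

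A further 53 genes of adherens junctions and their link to actin were looked up by the same rule, and 48 (90.6%) had a DLX3 peak in the window, against 52.5% of all protein-coding genes and 73.2% of the marked genes of the length range above. Their median number of peaks was 2. Their median density was 1.569 per 100 kb, against 4.481 in the 10 core genes and 1.407 in the marked genes of that length range. DLX3 lay on the lead H3K4me3 peak in 31 of the 53, against 47.8% of the marked genes of that length range. The lengths of the 53 genes were not restricted to it. The highest score, 615.35 (rank 35), was in the window of Rhoa, a small GTPase gene of actin control, but that peak lay nearest to Gpx1. Actn4, the gene of the actin cross-linker α-actinin-4, had 13 DLX3 peaks, where 0.247% of all protein-coding genes had 11 or more. The highest scored 456.28 and lay on H3K4me3 at the upper-coordinate end of the span (chr7:28961910-28962841). Ptprm and Ptprk, receptor phosphatase genes of cell contacts, had peaks of 439.31 and 276.17 inside the gene. Lmo7, whose product binds afadin, had 315.78 inside the gene, and the window of Camsap3, a microtubule minus-end protein gene, had 291.98, nearest to Rps23rg1. The 5 genes without a DLX3 peak were Cdh2, the gene of N-cadherin, Cdh5, that of endothelial VE-cadherin, Ctnna2, that of neural α-catenin, Myh10 and Cbll1. Of these 5, Cdh5 alone had no H3K4me3 over its span.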

How the data were processed

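Each of 2 libraries came with 1 deposited peak list, holding chromosome, start, end, name and a score that the authors gave each peak. The submitters' processing notes name build mm10 and the tools Bowtie 1.1.2, MACS 1.4.2 and HOMER. Settings, and whether IgG was the control, were not given in the sources used here. Positions were converted to count from 1. Gene spans came from RefSeq GRCm38.p6 (13 protein-coding genes off the nuclear chromosomes were left out), and start sites and strands from its promoter table. A peak belonged to a gene when any base lay within 20 kb of the span, and DLX3 lay on H3K4me3 when they shared 1 bp. Shares carry exact 95% Clopper-Pearson intervals for counting error only, computed with scipy 1.17.1. The interval code was tested on simulated data. The 10 genes, the 53 further genes (6 named, by highest DLX3 score), the markers and the motifs were chosen with earlier results of these data known, and the range of gene lengths used for comparison after the values were seen. Score depends on depth and width.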

Additional observations from a re-analysis of the deposited data

How the results depend on the processing

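Alternatives covered windows of 0, 5 and 50 kb, peaks at or above the median score or in the top 20% of each list, other definitions of overlap, and peaks nearest to the listed gene alone. All 10 genes had a DLX3 peak with each window, 9 had one with the lower-scoring part of the list removed at its median, and 8 with the top 20%. With the span alone, 35.8% of all protein-coding genes had one. For the 5 and 50 kb windows and the score filters, shares of other genes were not worked out, so these counts have no background. The window, overlap and nearest-gene alternatives left each count within 1.5 times its value above, and the share on H3K4me3 stayed within its interval. Filtering both lists by score did not. With peaks at or above the median score, 25 DLX3 and 15 H3K4me3 peaks were left, 5 genes had DLX3 on H3K4me3, and 20% of DLX3 peaks lay on H3K4me3. With the top 20%, these were 15, 8, 3 and 20%. Of the 53 further genes, 37 had a DLX3 peak at or above the median score and 19 had one in the top 20%. Both filters remove every weak H3K4me3 peak, but not only these. The median also removes peaks of 693.11 at Apoe and 774.12 at Tango6, and the top 20% that of 1377.62 at Tomm40. With the median applied to DLX3 alone, an alternative chosen after seeing the data, the share on H3K4me3 was 48%. Which removed peaks account for the lower share was not tested. No paired analysis was possible because each antibody has 1 library. Depth is unknown, so a peak that is not listed may lie under the limit of detection.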
